A study of Mus musculus with 6 samples.

Results

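The Rab family was followed through arrays of wild-type (WT) and SAP-deficient T helper cells. Its members were taken by name alone, as every gene whose annotated symbol is Rab followed by a number and optional letters. Of 18193 genes measured, 71 met this rule. Of these, 59 encode Rab GTPases and 12 do not: 9 are partner proteins named after a Rab (Rab3gap1, Rab3gap2, Rab3ip, Rab3il1 and Rab11fip1 to Rab11fip5), 1 is another protein (Rab5if) and 2 are antisense transcripts (Rab10os and Rab26os). Each gene was represented by its probe set with the highest mean signal, and all 71 were tested with no filter on low values. The mean signal of 56 members lay above the median of all probe sets, 5.75 on the log2 scale, and that of 15 lay under it. Rab4a was chosen by its difference between the genotypes in these same arrays, so its values are described here and carry no test.

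Rab GTPases are small switch proteins that mark the membranes of the cell. Bound to GTP, a Rab sits on its membrane through a prenyl anchor and recruits effectors that move, tether or fuse vesicles; exchange factors load the GTP, and GTPase-activating proteins end the signal. Rab5 proteins act at the early endosome, Rab4 and Rab35 in fast recycling from there to the cell surface, Rab11 in slower recycling, Rab7 on the way to the lysosome, Rab1 and Rab2 between endoplasmic reticulum and Golgi, and Rab3 and Rab27 in regulated secretion. In T cells Rab4a has been linked to the recycling of CD4 and of the CD3 zeta chain.

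Both groups were CD4+ T cells of OT-II mice, which carry a transgenic T cell receptor for an ovalbumin peptide, so WT here means TCR transgenic with SAP intact. Naive cells (CD44lo, CD62L+, CD25-) from spleen and lymph nodes were sorted and cultured for 3.5 days with the peptide, presented by mitomycin C-treated splenocytes without T cells. Tfh-like conditions, named after follicular helper T cells, were the same for both genotypes: IL-21 at 50 ng/ml, IL-6 at 100 ng/ml and blocking antibodies against 4 cytokines, namely TGF-β (20 µg/ml), IL-4 (10 µg/ml), IL-12 and IFN-γ. SAP, encoded by Sh2d1a, is the adaptor of the SLAM family of receptors. The labels give 3 arrays per genotype without saying whether they came from separate animals or cultures, so p-values measure the spread between these arrays, which may be technical; they name neither the type of SAP mutation nor the age of the mice.

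Replicates are numbered 1 to 3 within each genotype, in accession order. Arrays of equal number resembled each other across genotypes: over probe sets not used for the matching, their deviations from the mean of each genotype had correlations of 0.54, 0.73 and 0.60, and no other WT and SAP-deficient array exceeded -0.11. Such deviations cancel within a genotype, so the negative values follow largely from the positive ones and are not separate support. Over all probe sets without centring, correlations were 0.9957 to 0.9978 for equal numbers and 0.9886 to 0.9936 for the others. Changes are therefore given over all arrays (SAP-deficient minus WT, log2) and by replicate number. Sh2d1a checked the labels: it measured 9.50, 8.52 and 9.39 in WT and 5.47, 4.10 and 4.92 in SAP-deficient cells, a 19.8-fold lower signal (limma adjusted p = 0.0501). The 8 T cell markers measured of 10 all lay above the array median, with array means of 11.24 to 11.41 in WT and 11.17 to 11.37 in SAP-deficient cells. Markers of other cells were read as well. The 9 B cell markers measured averaged 5.60 to 5.83 in WT and 5.41 to 5.67 in SAP-deficient arrays, with 4 above the array median, the 6 MHC class II genes 8.07 to 8.38 and 7.78 to 8.27, with 5 above it, and the 9 myeloid markers 5.76 to 5.98 and 5.64 to 5.97, with 5 above it. The 4 erythroid and platelet markers measured of 6 averaged 5.33 to 5.55 in WT and 5.08 to 5.35 in SAP-deficient arrays, with 2 above the array median. In replicates 1, 2 and 3 the mean change of the B cell markers was -0.16, -0.07 and -0.38, that of the MHC class II genes -0.11, -0.02 and -0.46, that of the myeloid markers 0.00, -0.12 and -0.10, that of the erythroid and platelet markers -0.03, -0.26 and -0.22, and that of 11 cell cycle genes -0.18, -0.08 and 0.61.

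Rab4a gave a lower signal in SAP-deficient than in WT cells in every replicate. Its probe set 1449048_s_at measured 6.98, 8.02 and 7.19 in WT replicates 1, 2 and 3 and 6.40, 6.75 and 6.06 in the SAP-deficient ones. The genotypes did not overlap, but the gap was narrow: the lowest WT array lay 0.23 above the highest SAP-deficient array. WT averaged 7.40 ± 0.55 and SAP-deficient cells 6.40 ± 0.35 (SD, n = 3 each), a difference of -0.99 (SE 0.29), or 1.99-fold lower. By replicate number the difference was -0.58, -1.27 and -1.14. Replicate 2 gave the highest signal in both genotypes, and the genotypes accounted for 63.8% of the variance over the 6 arrays against 30.4% for the replicate numbers.

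The other Rab4a probe set, 1418341_at, gave the same picture. It measured 6.74, 7.65 and 6.91 in WT and 6.03, 6.51 and 5.54 in SAP-deficient cells, again with no overlap and a gap of 0.23. The difference was -1.07 over the 6 arrays and -0.70, -1.14 and -1.37 by replicate number. Both probe sets are annotated to the same transcript record, so they are repeat measurements of 1 RNA and not independent support. Rab4a lies on chromosome 8 and Sh2d1a on X.

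Markers of other cells moved with the genotype in some of the same replicates. In replicate 1, where Rab4a differed by -0.58, the mean change was -0.16 for B cell, -0.11 for MHC class II, 0.00 for myeloid and -0.03 for erythroid and platelet markers. In replicate 2, where Rab4a differed by -1.27, these lists changed by -0.07, -0.02, -0.12 and -0.26, and in replicate 3, where it differed by -1.14, by -0.38, -0.46, -0.10 and -0.22. The myeloid and the erythroid and platelet lists had the same order over the replicates as Rab4a by 1449048_s_at. The B cell and MHC class II lists did not. By the other Rab4a probe set, 1418341_at, the differences were -0.70, -1.14 and -1.37, and no list had that order. The part of these lists in the result was not tested. In these bulk samples, fewer cells of a type and less RNA per cell cannot be told apart. Leaving out WT replicate 2, the brightest array for Rab4a, reduced the difference to -0.68, and leaving out WT replicate 1 enlarged it to -1.202.

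**Figure D1:**
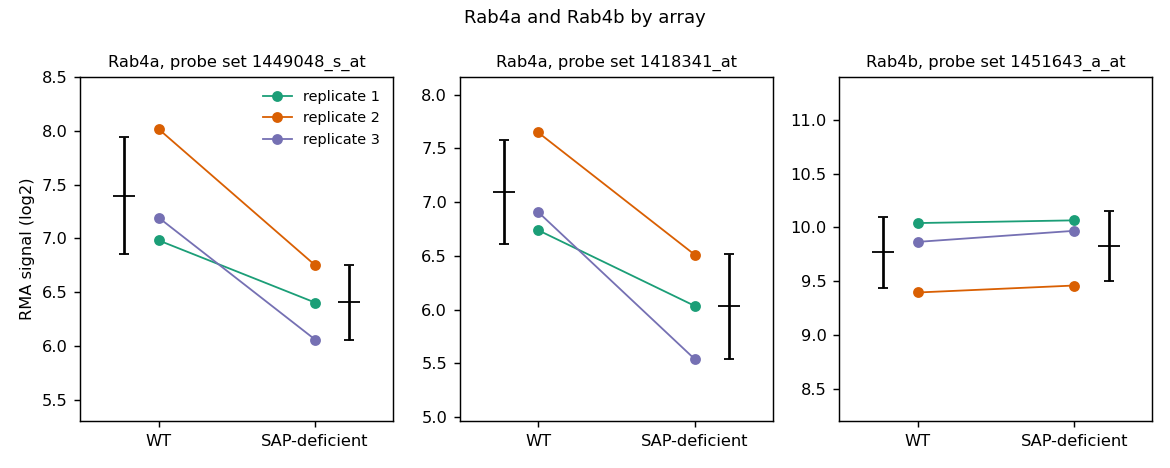
RMA signal (log2, vertical axis) of both Rab4a probe sets and of the Rab4b probe set in WT and SAP-deficient cells; coloured points are arrays, lines join arrays of equal replicate number, and black bars are means with SD (n = 3), over axes of equal span. Every Rab4a line falls, with differences of -0.58 to -1.27 for 1449048_s_at, while the Rab4b lines are nearly level and replicate 2 is its lowest.

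Rab4b, the closest paralogue, was read at nearly the same level in both genotypes. Its signal was 10.04, 9.39 and 9.87 in WT and 10.07, 9.46 and 9.97 in SAP-deficient cells. The groups overlapped fully and the difference was 0.06 (SE 0.21; 95% interval -0.42 to 0.55), with 0.03, 0.06 and 0.10 by replicate number. Replicate 2 was the lowest for Rab4b in both genotypes and the highest for Rab4a.

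Rab4a stood at the lower edge of its family over all arrays, though not in each replicate. There the next lowest members were Rab3d at -0.41 and Rab39 at -0.32, and the highest was Rab5c at 0.31. The other 70 members had a median of -0.01 and an SD of 0.12, and 64 of them changed by less than 0.2 in either direction. Among all 18193 genes only Sh2d1a had a lower value, and Slc15a2, a peptide transporter, came next at -0.97. In replicate 1, Rab39 at -0.62 and Rab27a at -0.60 were lower than Rab4a at -0.58, which ranked 71 from the lowest among all genes. In replicate 2 Rab4a was the lowest member by a wide margin (next Rab11fip3 at -0.36) and ranked 2 among all genes. In replicate 3 Rab3d, at -1.16, was slightly lower than Rab4a, which ranked 8 among all genes. Set against the 1666 genes with a mean signal within 0.5 of its own, Rab4a ranked 2 over all arrays and 14, 2 and 5 in the 3 replicates.

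**Figure D2:**
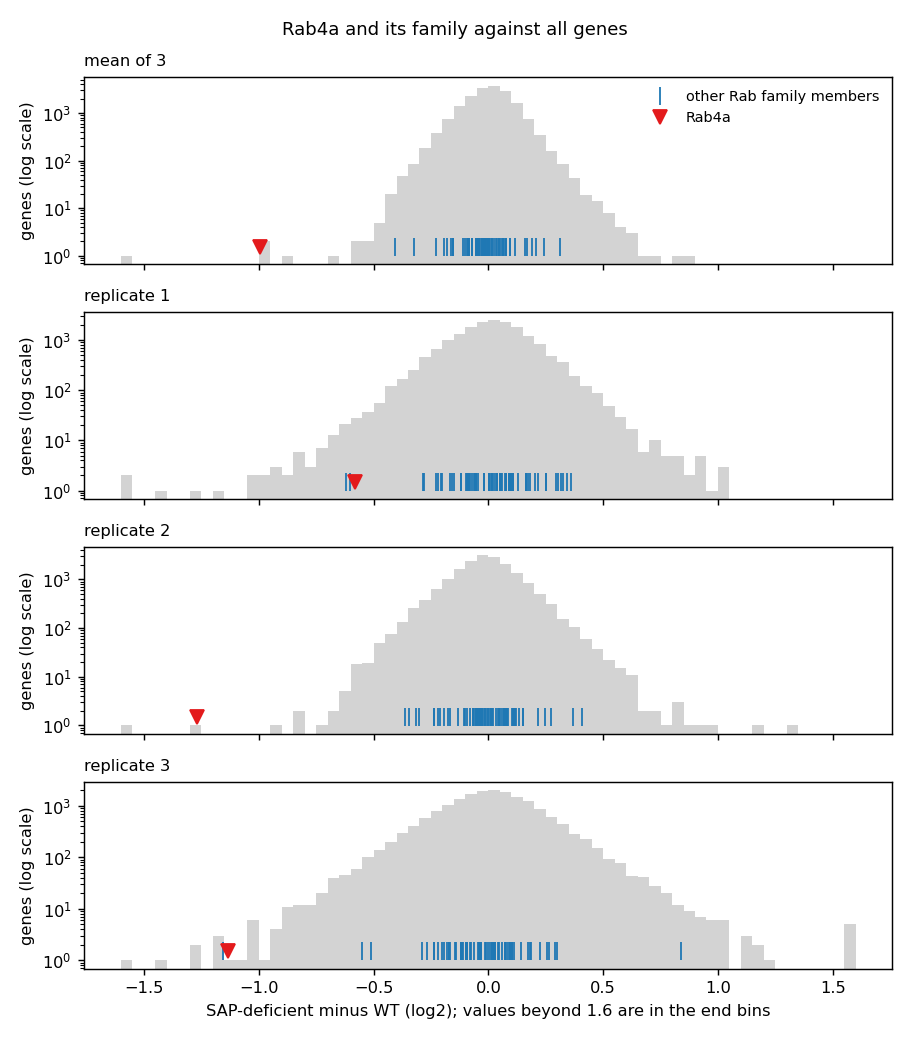
Histograms of SAP-deficient minus WT signal (log2, horizontal axis) over all genes, with the number of genes on a log scale, for the mean of 3 replicates and for each replicate; blue ticks are the other 70 Rab family members and the red triangle is Rab4a. Rab4a lies outside the blue ticks for the mean and in replicate 2, and among the lowest of them in replicates 1 and 3.

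The other members, taken as a family, moved about as often as genes at large where brightness was not matched, but they were brighter. Of the 70, 55 lay above the median of all probe sets, against 10934 of 18193 genes. With probe sets under that median left out, 3.29% of genes had genotypes that did not overlap. Rab20, Rab38, Rab3a and Rab5if were still among them, so 4 of these 55 members did not overlap, a larger share. An unadjusted p under 0.05 (limma) was reached there by 0.48% of genes and by none of these members. The larger share rests on 4 members and was not tested. No gene of the 18193 was called at an adjusted p under 0.05 in the genotype-only fit (0.0% of all genes), so no member was; the smallest adjusted p among the other members was 1.00. An unadjusted p under 0.05 was reached by 1.31% of all genes and by 0 of the other 70 members (limma). With the replicate number as a block, 6.1% of all genes and 5 of the 70 members, or 7.14%, had an unadjusted p under 0.05: Rab20 and Rab29 were higher (3.49% of all genes), and Rab11b, Rab39 and Rab39b lower (2.61%). The smallest adjusted p among them was 0.779, so none was called with the block either; Sh2d1a was the only call of that fit (0.0055% of all genes). The genotypes did not overlap for 4 of the 70 members (5.71%), against 5.32% of all genes: Rab20 was higher (2.38% of all genes), and Rab38, Rab3a and Rab5if were lower (2.94%). The sign was the same in all 3 replicates for 20 of the 70 (28.6%), 12 higher and 8 lower, against 28.8% of all genes, of which 15.6% were higher and 13.1% lower. A change of at least 0.25 was seen in 3 of the 70 (Rab3d, Rab39 and Rab5c) and in 3.8% of all genes, and a change of at least 0.5 in 0 of the 70 and in 0.154% of all genes. On average 31 of the 70 members, or 44.3%, were higher in SAP-deficient cells, against 53.3% of all genes. The middle 50% of the 70 changes ran from -0.07 to 0.05. Over the 59 GTPases alone, Rab4a included, 27 were higher and the median change was -0.01, beside 0.01 over all genes.

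**Figure D3:**
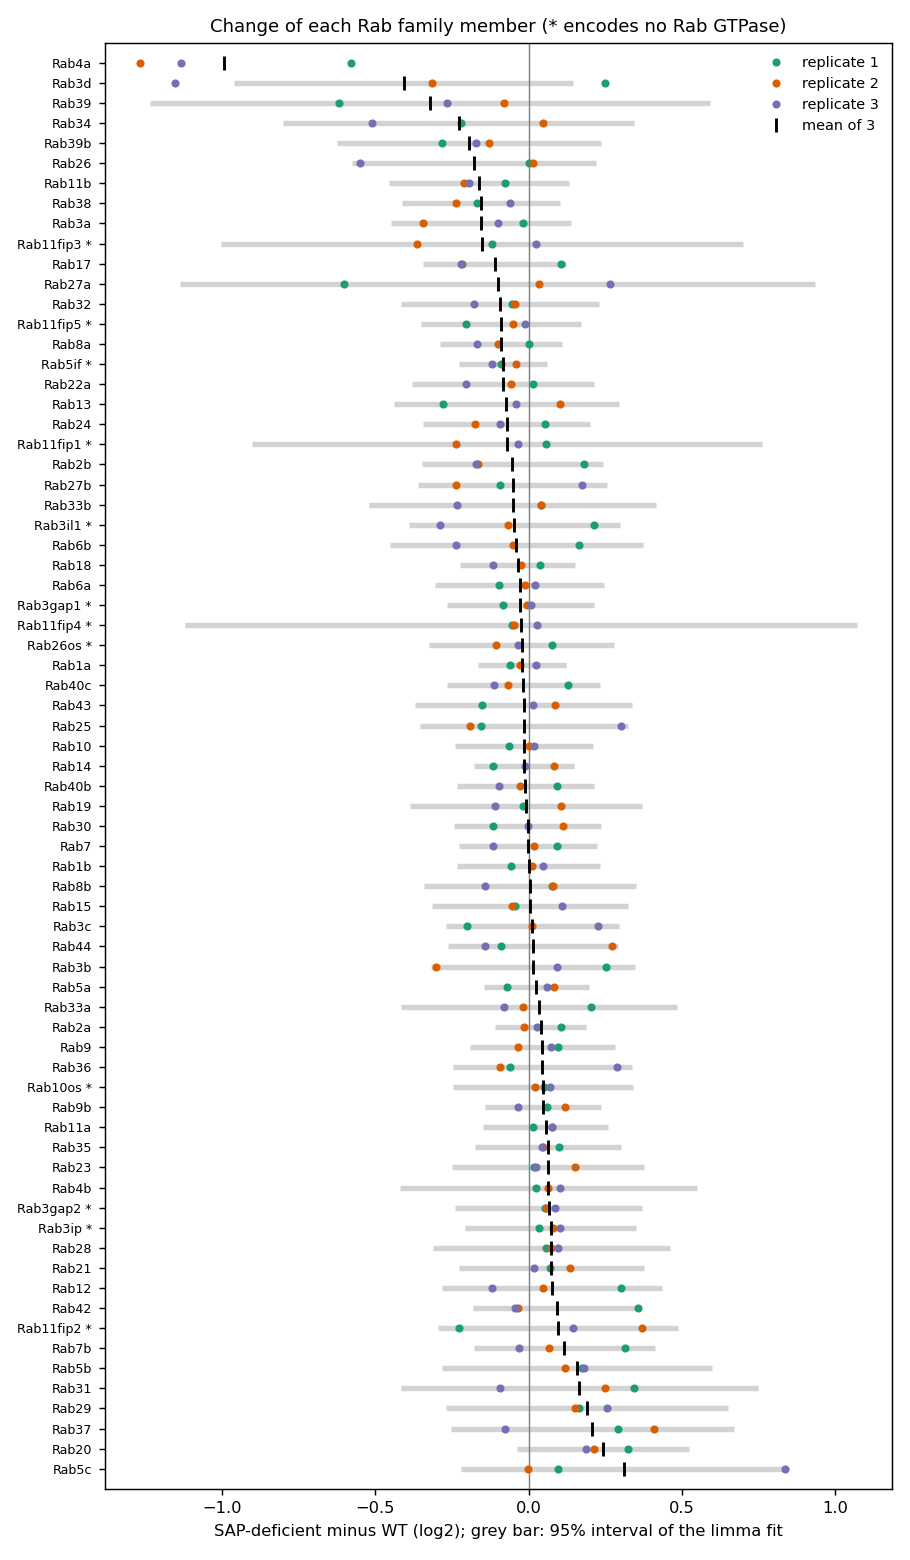
SAP-deficient minus WT signal (log2, horizontal axis) of the 71 Rab family members, 1 row each; coloured points are the 3 replicate numbers, black ticks their mean, and grey bars the 95% interval of the genotype-only limma fit, with no interval drawn for Rab4a. Asterisks mark the 12 members that encode no GTPase; every grey bar includes 0, and the means of the other members run from -0.41 for Rab3d to 0.31 for Rab5c.

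At the early endosome and in fast recycling, all 11 GTPases measured lay above the median of all probe sets. Apart from Rab4a, SAP-deficient cells gave higher values for 8 of the 10 and lower values for 2 (median change 0.06), and none passed the test. Rab5c, 1 of the Rab5 isoforms that drive fusion of early endosomes, had the highest mean change in the family. It measured 9.19, 9.69 and 8.76 in WT and 9.28, 9.69 and 9.60 in SAP-deficient cells. The difference of 0.31 (SE 0.23; 95% interval -0.22 to 0.84) came from replicate 3, where it was 0.84, against 0.10 and -0.00 in replicates 1 and 2. That is also the replicate in which cell cycle genes were 0.61 higher and MHC class II genes 0.46 lower, and their part in the result was not tested.

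Rab5b measured 6.86, 7.01 and 6.47 in WT and 7.04, 7.13 and 6.65 in SAP-deficient cells. The difference of 0.16 (SE 0.19) was similar in every replicate, at 0.17, 0.12 and 0.18, while the arrays of the genotypes overlapped. The other Rab5b probe set, of nearly equal mean signal (6.82 against 6.86), did not show this rise. It differed by -0.07 (SE 0.14), with -0.30, 0.11 and -0.01 by replicate number. Rab5a was nearly constant at 11.09 to 11.23 over the 6 arrays, with a difference of 0.02 (SE 0.07). Rab35, which returns receptors rapidly to the plasma membrane, differed by 0.06 (SE 0.10), and Rab14, which works between endosomes and Golgi, by -0.02 (SE 0.07).

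The GTPases of recycling endosomes and of delivery to the plasma membrane were 8 in number, 2 higher and 6 lower, with a median change of -0.04. Rab11b, a Rab of the slow recycling route, had the lowest value. It gave 10.17, 10.04 and 10.34 in WT and 10.09, 9.82 and 10.15 in SAP-deficient cells. Each SAP-deficient array lay under the WT array of the same number although the groups overlapped; the difference was -0.16 (SE 0.13), with -0.18 and -0.17 by its other probe sets. With the replicate block its unadjusted p was 0.0237 and its adjusted p 0.779 (limma). Rab11a, the related isoform, differed by 0.06 (SE 0.09). Rab8a, which carries vesicles to the plasma membrane, differed by -0.09 (SE 0.09), and Rab8b, by signal among the 5 brightest members, by 0.00 (SE 0.15). Rab17, best known from epithelial cells and among the 5 dimmest members, differed by -0.11 (SE 0.10).

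Of the 10 GTPases of late endosomes, lysosomes and related organelles, 6 were higher and 4 lower, with a median change of 0.05. Rab7, which directs late endosomes to lysosomes, measured 11.41, 11.28 and 11.57 in WT and 11.50, 11.30 and 11.45 in SAP-deficient cells, a difference of -0.00 (SE 0.10; 95% interval -0.23 to 0.22). Rab29, a partner of the kinase LRRK2, was higher in each replicate. Its signal was 8.26, 8.04 and 7.65 in WT and 8.43, 8.19 and 7.90 in SAP-deficient cells. The shift of 0.19 (SE 0.20) was smaller than the spread between replicates, and by replicate number it was 0.16, 0.15 and 0.26; its adjusted p with the block was 0.812 (limma).

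Rab38, a GTPase of lysosome-related organelles such as melanosomes, was 1 of the 4 other members without overlap. Its arrays read 6.51, 6.52 and 6.39 in WT and 6.34, 6.28 and 6.33 in SAP-deficient cells, a difference of -0.16 (SE 0.11; 95% interval -0.41 to 0.10). Rab7b, which acts between endosomes and the trans-Golgi network, differed by 0.12 (SE 0.13), with 0.31 in replicate 1 and -0.03 in replicate 3. Rab9b was the dimmest member, at 2.95 to 3.15 over the 6 arrays, with a difference of 0.05 (SE 0.08).

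The endoplasmic reticulum and Golgi group had 14 of 15 listed GTPases measured, of which 3 were higher and 11 lower with a median change of -0.02. Rab1a and Rab2a, needed for transport between these compartments, were among the brightest members and differed by -0.02 (SE 0.06) and 0.04 (SE 0.06). Rab39 was dim and variable: it measured 5.62, 4.04 and 4.69 in WT and 5.002, 3.96 and 4.43 in SAP-deficient cells. The difference of -0.32 (SE 0.40; 95% interval -1.24 to 0.59) was far inside the spread between replicates. With the replicate block its adjusted p was 0.782 (limma). Rab30, also among the 5 dimmest members, read 3.40 to 3.68 and differed by -0.00 (SE 0.10).

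Rab39b, an X-linked relative of Rab39, was the member whose probe sets disagreed most. The probe set that represents it, 1435014_at, read 8.63, 8.95 and 8.47 in WT and 8.34, 8.82 and 8.30 in SAP-deficient cells, a difference of -0.19 (SE 0.19). Its other probe set, 1453246_at, read 7.03, 7.05 and 6.85 in WT and 7.19, 8.12 and 8.27 in SAP-deficient cells. Here the difference was 0.88 (SE 0.27), with 0.16, 1.06 and 1.42 by replicate number, and the lowest SAP-deficient array lay 0.13 above the highest WT array. This was the only family probe set with a rise of more than 0.5, and it was picked out after its values were seen and was not tested. Which transcript ends the probe sets read was not analysed here.

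Among the 8 GTPases of regulated secretion, 3 were higher and 5 lower, with a median change of -0.08. Rab3d, known from secretory granules of exocrine and mast cells, came after Rab4a as the lowest member. Its signal was 5.37, 5.79 and 6.35 in WT and 5.62, 5.48 and 5.19 in SAP-deficient cells. The groups overlapped and the sign changed between replicates, with 0.25, -0.32 and -1.16, for a difference of -0.41 (SE 0.24; 95% interval -0.96 to 0.15). Its other 3 probe sets gave -0.26, 0.07 and -0.20. As for Rab5c, the large value fell in replicate 3, where the B cell and MHC class II lists were lower, and their part in it was not tested.

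Rab27a, which docks lytic and other secretory granules, measured 9.002, 7.27 and 8.14 in WT and 8.40, 7.31 and 8.40 in SAP-deficient cells. Its difference of -0.10 (SE 0.45) was the net of -0.60, 0.04 and 0.26. Rab3a, best known from synaptic vesicles, read 7.79, 8.08 and 7.89 in WT and 7.77, 7.74 and 7.79 in SAP-deficient cells. The arrays did not overlap, by a margin too small to show at 2 decimals, and the difference was -0.15 (SE 0.13). Rab37, also found on secretory granules, read 7.02, 6.57 and 7.30 in WT and 7.31, 6.98 and 7.22 in SAP-deficient cells. It was higher by 0.21 (SE 0.20) but lower by 0.08 in replicate 3. Rab3c was among the 5 dimmest members and differed by 0.01 (SE 0.12).

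The remaining 8 GTPases, less studied or of other roles, gave 5 higher and 3 lower values with a median change of 0.04. Rab20, linked to the maturation of phagosomes, was the only other member that was higher without overlap. It measured 6.10, 6.34 and 6.26 in WT and 6.42, 6.55 and 6.44 in SAP-deficient cells. The difference of 0.24 (SE 0.12; 95% interval -0.04 to 0.52) had the same sign in all replicates, at 0.32, 0.21 and 0.19. Its unadjusted p was 0.0816 without and 0.0309 with the replicate block, and its adjusted p with the block was 0.8 (limma).

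Of the 9 partner proteins that are not GTPases, 3 were higher and 6 lower, with a median change of -0.03. Rab3gap1 and Rab3gap2, the subunits of a complex that acts on Rab3 and Rab18, differed by -0.03 (SE 0.10) and 0.07 (SE 0.13). Rab5if, a membrane protein first described as interacting with Rab5, read 11.82, 11.83 and 11.90 in WT and 11.73, 11.78 and 11.78 in SAP-deficient cells. It did not overlap, but its difference was only -0.08 (SE 0.06).

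Most members varied more between replicate numbers than between genotypes. Over the 70 members other than Rab4a, the numbers held a median of 75.9% of the variance of a member and the genotypes 6.20%, close to the 66.9% and 6.36% over all genes; the numbers are 3 groups and the genotypes 2, so the shares are not on equal terms. The widest ranges between the means of the numbers belonged to Rab11fip4 (1.59), Rab27a (1.41), Rab39 (1.31), Rab11fip3 (1.197) and Rab11fip1 (1.14). For all 5, replicate 2 was the lowest in both genotypes. The Rab11fip proteins bind Rab11 and couple recycling endosomes to motors. Rab11fip4 averaged 9.54, 8.50 and 10.09 in replicates 1, 2 and 3, and the numbers held 99.9% of its variance. Its genotypes were alike within each number, with differences of -0.05, -0.05 and 0.03. Rab11fip3 averaged 8.34, 7.59 and 8.79, and Rab11fip1 8.18, 7.33 and 8.47. Rab4b moved the same way over a smaller range, 10.05, 9.43 and 9.92.

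**Figure D4:**
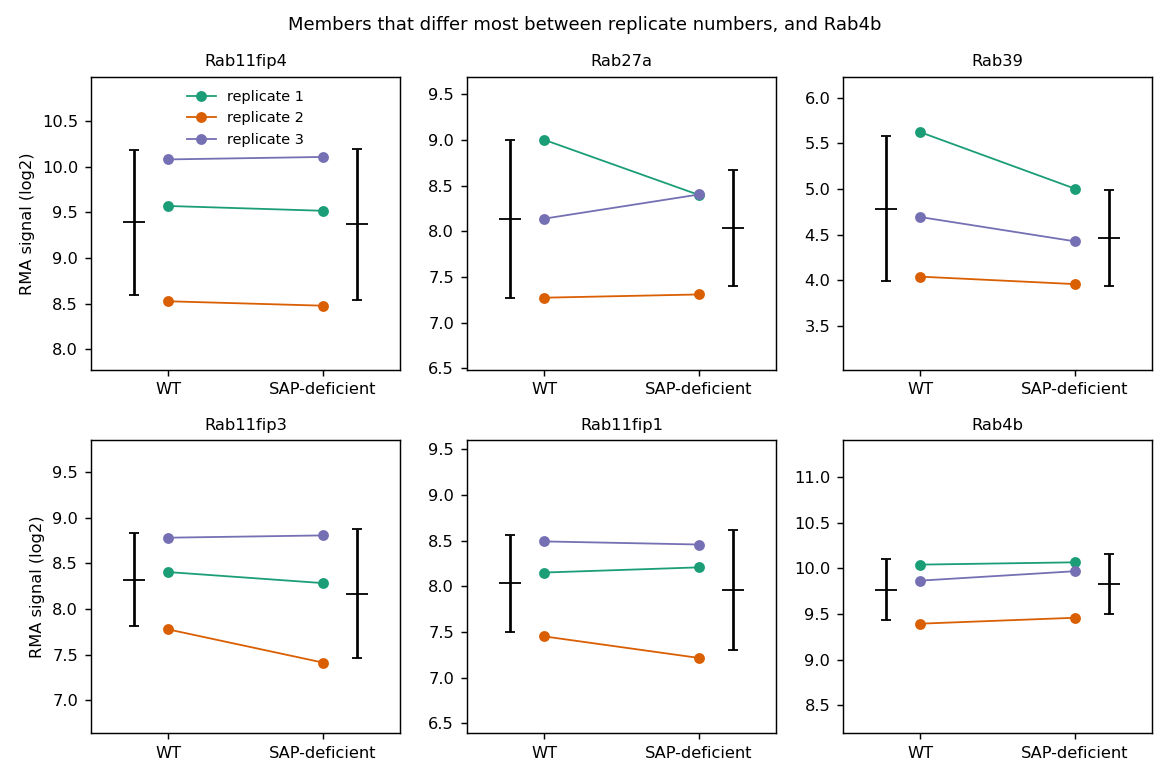
RMA signal (log2, vertical axis, equal span in each panel) of the 5 members that differ most between replicate numbers and of Rab4b, in WT and SAP-deficient cells; coloured points are arrays, lines join equal replicate numbers, and black bars are means with SD (n = 3). Replicate 2 is the lowest in every panel, and the lines of Rab11fip4 are almost level.

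Probe sets of the same member often gave changes of opposite sign. The family has 160 probe sets; 23 members have 1 and 48 have several. Among those 48, all probe sets had the same sign in 19 and opposite signs in 29. The median spread between the probe sets of a member, its highest minus its lowest change, was 0.12 with Rab4a included. The median size of a change among the 70 members other than Rab4a was 0.06, by 1 probe set each. These values are not on equal terms, because a range over several probe sets tends to be larger than a single change. The widest spread was that of Rab39b at 1.08, followed by Rab3d at 0.47. Outside Rab4a, changes of the 158 probe sets ran from -0.41 (Rab3d) to 0.88 (Rab39b), and none was below -0.5. Rab37 had a further probe set with 0.39, the same sign as its main one.

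**Figure D5:**
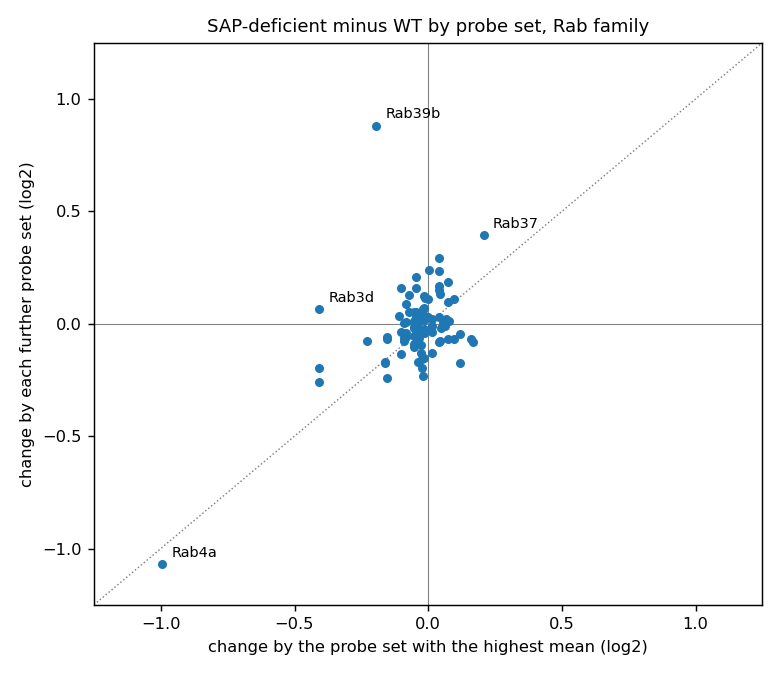
SAP-deficient minus WT signal (log2) of each further probe set of a Rab family member (vertical axis) against that of the probe set with the highest mean (horizontal axis); the dotted line marks equal values. Most points lie near 0, Rab4a lies close to the line at -0.99 and -1.07, and Rab39b lies far from it at -0.19 and 0.88.

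The machinery that controls Rabs was followed in 4 lists, which were drawn up from known functions. Without the block, 0 of their genes reached an unadjusted p under 0.05 (limma), and 0 were called. The share of all genes was 1.31%, and 0.48% with probe sets under the median of all probe sets left out. Of the 9 prenylation and membrane cycle genes measured, 5 were higher and 4 lower (median change 0.00). Of the 31 exchange factors, 21 were higher and 10 lower (0.03). The 33 GTPase-activating proteins split into 22 and 11 (0.05), and the 43 effectors and tethers into 27 and 16 (0.04). Together 75 of these 116 genes were higher, or 64.7%, against 53.3% of all genes. The 2 shares are not on equal terms, because 103 of the 116 lay above the median of all probe sets. The median change over all genes was 0.01, and 0.02 with probe sets under that median left out. The sign was the same in all replicates for 46 of the 116 (39.7%), 34 higher and 12 lower, against 28.8% of all genes. But the genotypes did not overlap in only 2 (1.72%), against 5.32% of all genes and 3.29% with probe sets under that median left out. With the replicate block, 8 of the 116 (6.90%) had an unadjusted p under 0.05, beside 6.1% of all genes: 6 higher (Dennd1b, Dennd5a, Mon1b, Ankrd27, Sytl2 and Golgb1) and 2 lower (Sgsm1 and Ehbp1).

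These genes and the ones below were named after their values were seen. Ankrd27, an exchange factor for Rab21, read 9.62, 9.60 and 9.19 in WT and 9.86, 9.67 and 9.74 in SAP-deficient cells, without overlap, a difference of 0.28 (SE 0.14). Dennd1b, an exchange factor for Rab35, differed by 0.25 (SE 0.38) with 0.07, 0.32 and 0.36 by replicate number. Sytl2, an effector of Rab27, read 6.21, 7.92 and 6.02 in WT and 6.70, 8.48 and 6.40 in SAP-deficient cells; its difference of 0.48 (SE 0.64) was steady by number, at 0.49, 0.56 and 0.38, beside a far higher level in replicate 2 of both genotypes. Partners that bind Rab4 gave small values: Rabep1 0.11 (SE 0.15), Gripap1 0.06 (SE 0.22) and Rufy1 -0.12 (SE 0.26).

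Among 15 surface receptors that recycle in T cells, 8 were higher and 7 lower, with a median change of 0.02. Cd4, whose product has been linked to Rab4a, read 9.87, 9.50 and 9.49 in WT and 9.85, 9.44 and 9.63 in SAP-deficient cells, a difference of 0.02 (SE 0.15). Tfrc, the transferrin receptor and the standard cargo of recycling endosomes, differed by 0.07 (SE 0.08). With the replicate block, 2 of the 15 had an unadjusted p under 0.05, beside 6.1% of all genes, and both were lower, beside 2.61%: Cd28, a costimulatory receptor, at -0.25 (SE 0.18) and Ctla4, its inhibitory counterpart, at -0.19 (SE 0.63). Neither was called, with adjusted p-values of 0.379 and 0.722 (limma with the block). Ctla4 was also among the receptors that differed strongly between numbers, with 12.15, 10.14 and 11.96 in WT and 12.05, 10.02 and 11.61 in SAP-deficient cells.

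The genes around Rab4a on chromosome 8 gave smaller differences. Of the 5 measured genes on each side in gene order, those before it were Dbndd1 (-0.23), Gas8 (-0.09), Gm19600 (-0.02), Rhou (0.11) and 4732419C18Rik (0.13), and those after it Ccsap (-0.05), Acta1 (-0.05), Nup133 (0.12), Abcb10 (0.15) and Taf5l (0.02). Among 9095 genes with a mean signal above the median of all genes, the profiles most like that of Rab4a over the 6 arrays were those of Ifi209, Prss2, Trim30d, Ddit3 and Ccl22, with root mean square differences of 0.37, 0.37, 0.40, 0.40 and 0.41 after centring on the mean. Rab4a itself varied by 0.62 around its mean, so the likeness was loose. Ifi209, an interferon-induced gene, read 7.64, 8.13 and 7.91 in WT and 7.23, 8.12 and 6.89 in SAP-deficient cells. It had almost no difference in replicate 2, where that of Rab4a by 1449048_s_at was largest. Within the family, searched without that limit on signal, the nearest member was Rab34 at 0.44, with a mean signal of 5.87. Its differences were -0.22, 0.05 and -0.51 by replicate number.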

How the data were processed

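The deposited values are log2 signals of 45101 probe sets on 6 Affymetrix whole-genome mouse arrays, made by the authors with Affymetrix Expression Console and RMA, per the submitters' processing notes. RMA corrects background, equalises the arrays' distributions and summarises probes; it compresses differences of dim probe sets and hides changes in total RNA. Each array took 500 ng of labelled total RNA, per the labels' protocols. The sources used here give neither the versions of these tools nor the authors' genome build. Array medians ran from 5.73 to 5.76, and no pair of arrays shared more than 63 equal values. The number of arrays limits the precision.

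After 64 control probe sets were left out, limma (version 3.58.1, R version 4.3.3) fitted genotype over 45037 probe sets (lmFit, then eBayes with an intensity trend). The platform annotation gave 1 gene for 34945 of them, several for 932 and none for 9160; a RefSeq gene table (GRCm38.p6) updated symbols for 34742 and gave chromosomes and gene order, but none of its coordinates are printed because the authors' build is unknown. Each gene was represented by the brightest of its single-gene probe sets on average. Benjamini-Hochberg adjustment ran over 18193 genes, with calls at an adjusted p under 0.05. The same fit gave the 95% intervals. A second fit added the replicate number as a block. The labels state no pairing; arrays of opposite genotype were matched by resemblance on odd-numbered probe sets, checked on even-numbered ones, and the matches fell on equal numbers. The fit was tested on simulated data.

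The members and gene lists were chosen with earlier results of these data known. Lists are described by counts and medians with no set test; Rab5if, Rab10os and Rab26os were classed by function after the list of members was drawn. Named genes follow a rule: Sh2d1a, Rab4a, Rab4b, 7 familiar Rabs, the 6 other members with the smallest p in each direction, members without overlap, the 5 brightest and 5 dimmest by signal, the 5 that vary most between numbers, list members with an unadjusted p under 0.05, the neighbours of Rab4a and the profiles most like it. Others are named as examples. Alternatives were other variance settings, array weights, further normalization, filters on dim probe sets, other probe sets for a gene, the block and the removal of arrays.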

Additional observations from a re-analysis of the deposited data

How the results depend on the processing

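The labels pair no arrays, and counts of members in this section leave out Rab4a, which carries no test here. No member was called under any of the alternatives run. Over all genes, 0 calls became 1 (Sh2d1a) with robust variance, without probe sets that can match several transcripts (_x_at and _s_at) and with the replicate block, and ranged from 0 to 1 when arrays were left out. Members with an unadjusted p under 0.05 numbered 0 in the genotype-only fit and 1 without the trend. Without probe sets under the 75th percentile there were 0. With a gene's probe sets averaged there were 2 (Rab20 and Rab37), and with the replicate block 5. Leaving out arrays gave 0 to 1. In the same order, the shares of all genes with an unadjusted p under 0.05 (limma) were 1.31%, 1.30%, 0.31%, 1.56%, 6.10% and 0.84% to 1.66%. Members without overlap numbered 4 of 70, beside 5.32% of all genes. They became 1 of the 37 members left under the 75th percentile filter, beside 2.71% of the genes left. Without _x_at and _s_at probe sets they were 3 of 70, beside 5.33%. A second quantile normalization gave 4, beside 5.47%, and averaged probe sets gave 6, beside 5.23%. Leaving out 1 array gave 8 to 13 and leaving out both arrays of a number 11 to 19. The share of all genes rose as well when arrays were left out, to 11.1% to 24.1%. Rab4a was -1.202 to -0.68 in each alternative that measured it; it was not represented under the 75th percentile filter. It ranked lowest in the family in all of these except without WT replicate 2, where Rab39 was lower at -0.69. The median of the GTPases stayed between -0.02 and 0.01. Removal of both arrays of a number was chosen after seeing the data. Of 550 values of 30 other named members under 19 settings, 4 moved by more than 1 SD between replicates and 49 changed sign; 16 members never changed sign.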
